A study of Rattus norvegicus with 8 samples.

Results

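The miR-15/16 family and the related cluster of miR-195 and miR-497 were followed in bone around titanium implants in rats. Its members were taken by name alone: every entry of the deposited table called miR-15a, miR-15b, miR-16, miR-195 or miR-497, with either arm, while miR-322 and miR-503 were kept out. This gave 10 of the 974 miRNAs in the table, both arms (5p and 3p) of 5 hairpins, and all 10 passed the filter on low values. The samples were 8 small RNA libraries from male Wistar rats aged 12 to 13 weeks, 4 from hyperlipidemic animals on a high-fat diet and 4 from normal animals on a normal diet, each diet given for 8 weeks. Every rat, in both groups, carried titanium implants in its femurs, and the bone within 1 mm of an implant was taken 10 days after implantation, with the muscle removed. The labels do not say how many rats gave each library or whether femurs were pooled, so the p-values measure the spread between libraries.

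These miRNAs act through a shared seed, the bases 2 to 8 with which a miRNA finds its target transcripts. In human and mouse cells the family restrains the cell cycle and cell survival, with cyclins and the apoptosis inhibitor Bcl2 among its best known targets, and the miR-15a/miR-16 locus is lost in many human chronic lymphocytic leukaemias. In mouse bone the cluster of miR-195 and miR-497 is known from the endothelium of vessels that accompany bone formation, and in cultured human mesenchymal cells miR-15b has been reported to favour osteoblast differentiation. Each hairpin yields 2 arms, of which one is usually kept in the silencing complex and the other is mostly degraded.

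The mature sequences show what the family shares and where it parts. RefSeq sequences on the build GRCr8 were found for 8 of the 10 members and are given 5′ to 3′, with the seed in capitals. The first 4 are the 5p arms.
rno-miR-15b-5p: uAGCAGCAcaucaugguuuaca
rno-miR-16-5p: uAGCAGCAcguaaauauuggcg
rno-miR-195-5p: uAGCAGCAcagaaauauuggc
rno-miR-497-5p: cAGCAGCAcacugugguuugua
The 3p arms from the same hairpins are shown because the ratios of 5p to 3p arms are described below.
rno-miR-15b-3p: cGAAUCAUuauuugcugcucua
rno-miR-16-3p: aCCAAUAUuauugugcugcuu
rno-miR-195-3p: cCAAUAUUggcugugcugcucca
rno-miR-497-3p: cCAAACCAcacugugguguuaga

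All 4 of these 5p arms carried the seed AGCAGCA, while each of the 4 3p arms had a seed that no other mature miRNA of the reference shared. The pair miR-16-5p and miR-195-5p was the closest, with 19 of 21 bases identical and differences at positions 10 and 11 alone, counted from the 5′ end. MiR-15b-5p and miR-497-5p were identical at 16 of 22 positions, and miR-16-5p and miR-497-5p at 11 of 22. The sources used here do not give the rule by which the authors assigned reads to such close relatives, so part of the split between miR-16-5p and miR-195-5p may depend on it. Among the catalogued miRNAs with a reference sequence (544 of 604), 1 other has the same seed, miR-322-5p, and miR-503-5p differs from it at the last seed base. They are printed for comparison.
rno-miR-322-5p: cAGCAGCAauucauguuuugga
rno-miR-503-5p: uAGCAGCGggaacaguacugcag

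In GRCr8 the hairpins Mir15b and Mir16 are neighbours inside Smc4, a gene for a condensin subunit, with mature miR-15b-5p at chr2:155555197-155555218 and miR-16-5p at chr2:155555343-155555364, both on the plus strand. Mir497 and Mir195 are neighbours on chromosome 10, with miR-497-5p at chr10:55450172-55450193 and miR-195-5p at chr10:55450509-55450529, also on the plus strand. The authors' values carry no coordinates for these miRNAs, and the table gives 1 row per mature arm. In human and mouse a second copy of miR-16 lies beside miR-15a. Reads from separate copies with the same mature sequence cannot be told apart.

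Values are given in reads per 1000000 (RPM) as the authors scaled them for the catalogued class, that is, miRNAs with an rno- name. The values of this class sum to 854151 to 909193 per library, so the scale also counts reads outside these rows. That scale rested on 990793 to 4809579 reads per library (2643425 or more in hyperlipidemic, 1748979 or fewer in normal libraries). Normal replicates 3 and 4 stood apart from the other libraries. Their summed red-cell list (miR-144, miR-451 and miR-486, 5 arms in the table) held 8.95% and 7.77% of the catalogued signal in the table, against 17.9% to 33.1% in the other 6 libraries. Their leukocyte list (miR-142 and miR-223, 4 arms) held 9.34% and 6.08%, against 14.8% to 20.2%. The skeletal mesenchyme list (miR-199a and miR-214, 4 arms) held 6.51% and 7.11% there, against 2.49% to 5.58%. Within both of these lists the arms split by log2 fold (hyperlipidemic over normal). MiR-142-5p, miR-142-3p and miR-223-3p stood at 0.84, 0.32 and 0.38, against -0.91 for miR-223-5p. MiR-214-3p stood at 0.72, against -0.14 for miR-199a-3p and -0.85 for miR-199a-5p. Within the red-cell list the 2 most abundant arms, miR-144-3p and miR-451-5p, were low in these libraries (26794 and 28332 RPM, and 35808 and 20265 RPM), while miR-486 had its highest value, 16264 RPM, in normal replicate 4. The log2 folds of miR-486, miR-144-5p and miR-451-3p were -0.14, -0.14 and -0.17, against 1.52 and 0.71 for the first 2, so the sum mainly follows miR-144-3p and miR-451-5p. Results that rest on normal replicates 3 and 4 are also given without them, and the part of the cell mixture in the results was not tested. In bulk bone, fewer cells of a type and less miRNA per cell cannot be told apart.

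The family was abundant, and miR-16-5p was its main member. The 10 arms together held 3.45%, 3.92%, 4.00% and 4.64% of the catalogued signal in hyperlipidemic replicates 1 to 4, and 4.42%, 4.02%, 2.99% and 1.86% in normal replicates 1 to 4. The groups overlapped, with normal replicates 3 and 4 lowest. The means were 4.00% ± 0.489 and 3.32% ± 1.15 (SD, n = 4 each), and their difference missed the threshold (two-sided exact permutation test, p = 0.371). Without normal replicates 3 and 4 it turned, to -0.22 percentage points (exact permutation p = 0.533, where 4 against 2 libraries allow no p below 0.0667). With the red-cell list taken out of the denominator the shares were 5.39% ± 0.559 and 3.93% ± 1.59 (SD, n = 4 each; exact permutation p = 0.143).

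Among the members the order of the levels followed the arms, with all 5 of the 5p arms above all 5 of the 3p arms. The 5p arms made up 97.8% to 99.0% of the family signal in every library, and miR-16-5p alone 45.4% to 59.1%. By mean over the 8 libraries the order was miR-16-5p (16634 RPM, rank 15 among catalogued miRNAs), miR-15a-5p (4906), miR-15b-5p (4493), miR-195-5p (4167) and miR-497-5p (1881), then miR-15b-3p (186), miR-497-3p (94.5), miR-16-3p (85.3), miR-15a-3p (31.3) and miR-195-3p (22.8). Neighbours in this order were compared within libraries (exact sign-flip test over 8 libraries, adjusted over 9 pairs). The pairs and their direction were taken from the same 8 libraries, so the p-values give no independent support for the order. MiR-16-5p exceeded miR-15a-5p, miR-195-5p exceeded miR-497-5p, miR-497-5p exceeded miR-15b-3p and miR-16-3p exceeded miR-15a-3p in 8 of 8 libraries (exact adjusted p = 0.0176 each). MiR-15a-5p, miR-15b-5p and miR-195-5p were not separated (exact adjusted p = 0.532 and 0.633), nor were miR-15b-3p and miR-497-3p (0.0562), miR-497-3p and miR-16-3p (0.820) or miR-15a-3p and miR-195-3p (0.293). Adapter ligation favours some sequences, so these levels order the reads and not necessarily the molecules.

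**Figure D1:**
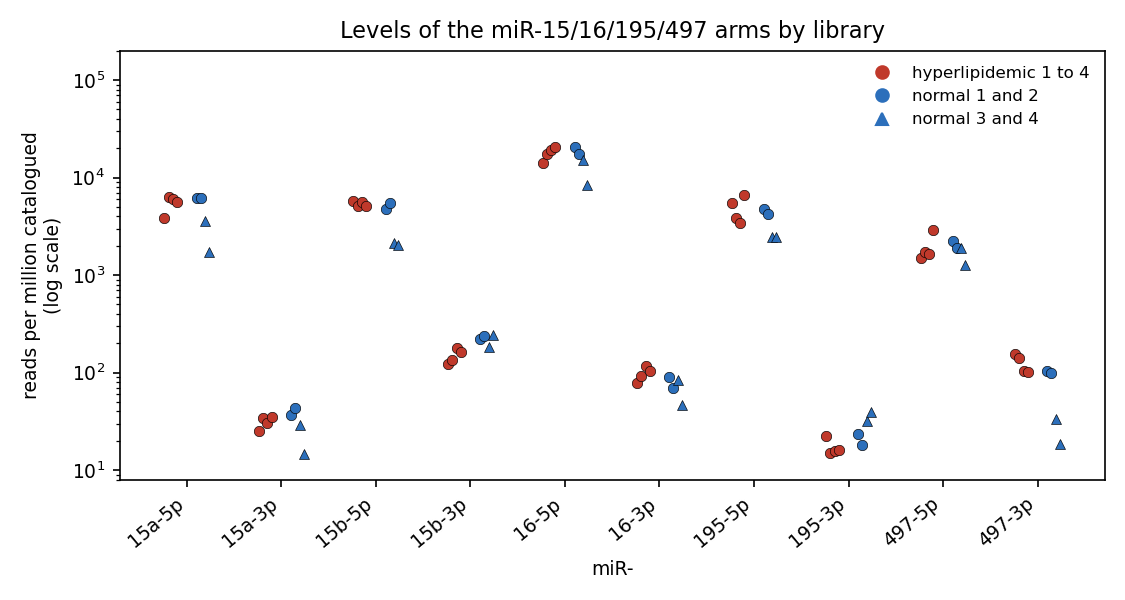
Level of each arm in each library, in RPM on a log scale; each point is 1 library, and triangles mark normal replicates 3 and 4. Those triangles are the lowest values of miR-15a-5p, miR-15b-5p, miR-195-5p and miR-497-3p, while for miR-195-3p they are the highest.

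None of the members was called between the groups. In limma on log2(value + 0.475) with a Benjamini-Hochberg adjusted p under 0.05 over all 696 miRNAs tested, 0.718% of the tested miRNAs were called and 0 of the 10 members were. All 5 calls were predicted miRNAs: the lowest adjusted p among the 396 catalogued miRNAs, to which the members belong, was 0.0584, and the lowest of a member was 0.258. At an unadjusted p under 0.05 there were 2 of the 10 members, miR-15b-3p and miR-497-3p. Beside them stood 124 of the 696 miRNAs tested and 62 of the 396 catalogued ones. Voom, a count-based weighting in limma run on the reads recovered from the values, also called 0 members, with 2 again at the unadjusted level. Of the members 8 had a log2 fold above 0 and 2 below, with a median of 0.36, beside 151 above and 245 below and a median of -0.20 among the 396 catalogued miRNAs tested. Factors from the median of ratios moved the catalogued median to 0.05 and the members' median to 0.62, and the 8 and 2 stayed. Without normal replicates 3 and 4 the members stood at 4 above and 6 below, with a median of -0.13 beside a catalogued median of -0.13.

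**Figure D2:**
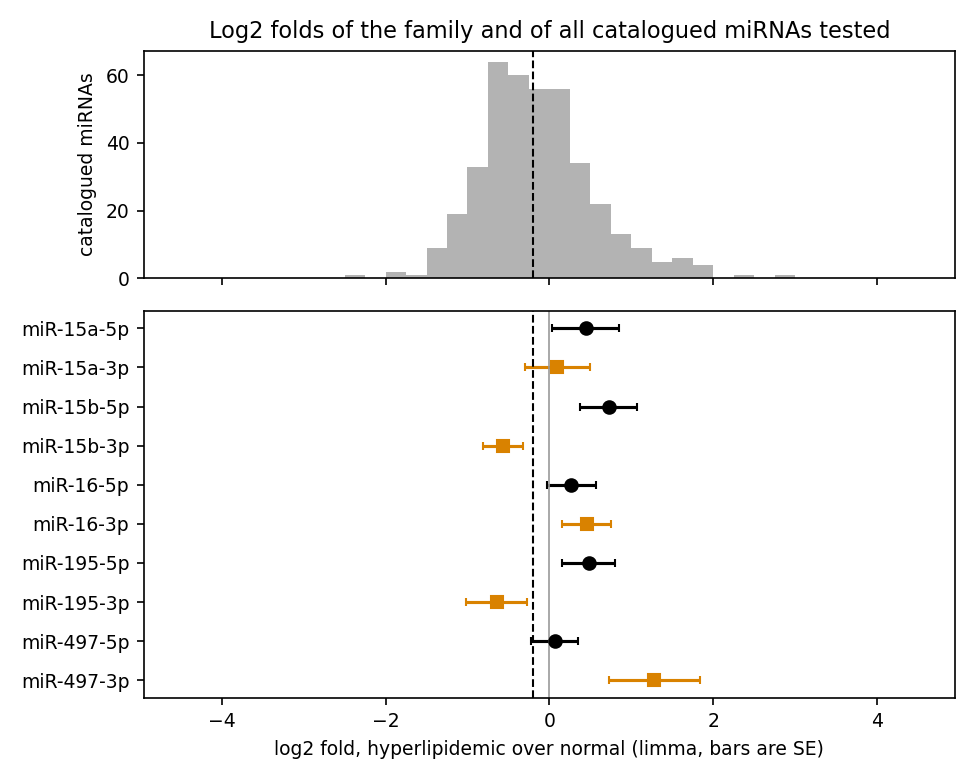
Upper panel, number of catalogued miRNAs by log2 fold (hyperlipidemic over normal); lower panel, log2 fold of each member with its SE, circles for 5p and squares for 3p arms. The dashed line is the catalogued median of -0.20; miR-15b-3p and miR-195-3p lie left of it and miR-497-3p farthest right at 1.28.

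The arms of miR-15b lay in opposite directions, the 5p arm higher and the 3p arm lower in hyperlipidemic bone, and neither passed. MiR-15b-5p, the arm with the family seed, read 5727, 5113, 5606 and 5101 RPM in hyperlipidemic replicates 1 to 4, and 4718, 5514, 2137 and 2030 in normal replicates 1 to 4. The hyperlipidemic libraries were close together (coefficient of variation 6.06%), while normal replicates 3 and 4 were well below normal replicates 1 and 2. The log2 fold was 0.72 (SE 0.35, 95% interval -0.07 to 1.51, limma adjusted p = 0.300). With normal replicates 3 and 4 left out it was 0.08 (limma adjusted p = 0.885).

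MiR-15b-3p, the other arm, read 123, 134, 180 and 164 RPM in hyperlipidemic replicates 1 to 4, and 221, 240, 182 and 242 in normal replicates 1 to 4. Each hyperlipidemic library was below each normal one, but hyperlipidemic replicate 3 (179.69) and normal replicate 3 (181.67) were nearly equal. These rest on 475 and 180 reads, whose exact 95% Poisson intervals, 164 to 197 and 156 to 210, overlap and cover counting error alone. Its means were 150 ± 26.3 and 221 ± 27.9 (SD, n = 4 each), a log2 fold of -0.57 with an SE of 0.24 (limma adjusted p = 0.258). It was the 1 of 10 members that was lower in hyperlipidemic bone without overlap, where 10.6% of the catalogued miRNAs tested were likewise lower without overlap. Leaving out normal replicates 3 and 4 gave -0.63 (limma adjusted p = 0.464). The lack of overlap belongs to the authors' scale. The median-of-ratios factors were 0.786 for hyperlipidemic replicate 3 and 1.34 for normal replicate 3, and dividing by them puts the first above the second. With these factors the log2 fold was -0.30 (limma adjusted p = 0.570). Rescaled without the red-cell list it was -0.38 (limma adjusted p = 0.427).

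A ratio of 2 arms within 1 library does not depend on how that library was scaled. For miR-15b the 5p arm stood 46.6, 38.3, 31.2 and 31.1 times above the 3p arm in hyperlipidemic replicates 1 to 4, and 21.3, 23.0, 11.8 and 8.39 times in normal replicates 1 to 4. All hyperlipidemic ratios exceeded all normal ones, and this held for normal replicates 1 and 2 as well as for 3 and 4. The difference in mean log2 ratio was 1.29, a 2.44-fold higher ratio in hyperlipidemic bone (exact permutation test, two-sided p = 0.0286, the smallest that 4 against 4 libraries can give; adjusted over 8 ratios 0.229). No ratio could pass this adjustment unless several reached that smallest p, so not passing says little about a difference. Without normal replicates 3 and 4 the difference in mean log2 ratio was 0.71. The lack of overlap then sets 4 libraries against 2, where no exact p can fall below 0.0667, and its share over all hairpins was not counted. The miR-16 arm ratio also did not overlap in those libraries, in the other direction.

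The arm ratio was then set beside those of all 127 catalogued hairpins with both arms tested, a comparison added after the values were seen. By limma 0% of these hairpins had an adjusted p under 0.05, 29 had an unadjusted p under 0.05, and miR-15b had the smallest p of all (difference 1.29, SE 0.37, limma adjusted p = 0.189). Its difference ranked 15 in size. Groups did not overlap in 11.8% of the hairpins and in 1 of the 5 family hairpins.

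**Figure D3:**
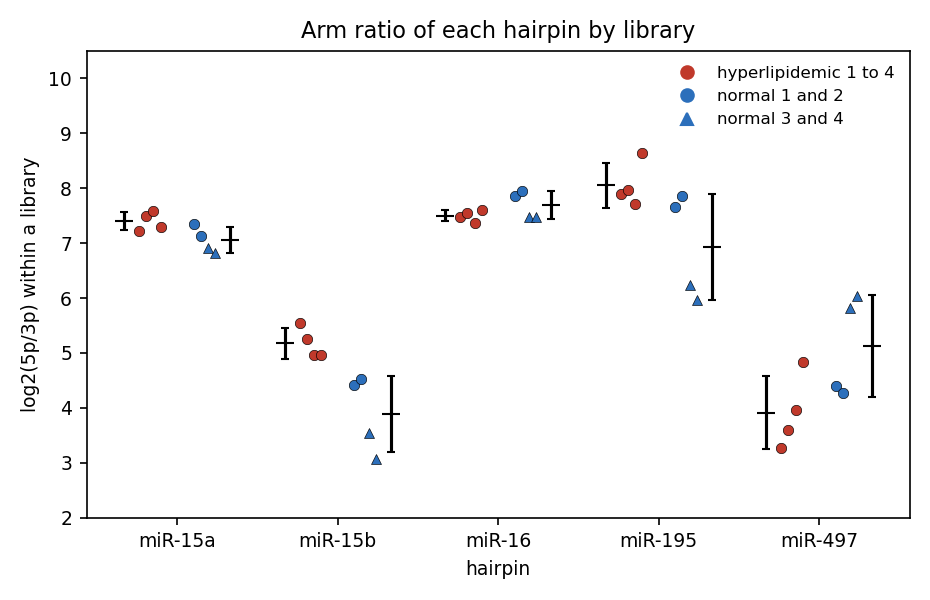
Log2 of 5p over 3p within each library for the 5 hairpins, with the mean and SD of each group of 4 libraries beside the points; triangles mark normal replicates 3 and 4. For miR-15b all hyperlipidemic points lie above all normal ones, and for miR-195 and miR-497 the triangles lie away from the other 6 libraries, below them for miR-195 and above them for miR-497.

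MiR-195 and miR-497, transcribed from neighbouring hairpins, had arm ratios that lay on opposite sides, and neither passed. As described for miR-15b, no ratio could pass the adjustment alone. MiR-195-5p read 5444, 3852, 3409 and 6624 RPM in hyperlipidemic replicates 1 to 4, and 4813, 4254, 2464 and 2478 in normal replicates 1 to 4. The groups overlapped (log2 fold 0.48, SE 0.32, limma adjusted p = 0.428; 0.04 without normal replicates 3 and 4). MiR-195-3p, which rests on 25 to 108 reads per library, read 22.4, 14.9, 15.9 and 16.2 in hyperlipidemic and 23.4, 17.9, 32.3 and 39.1 in normal replicates 1 to 4 (log2 fold -0.64, SE 0.37, limma adjusted p = 0.351; -0.25 without normal replicates 3 and 4). Its highest values were in normal replicates 3 and 4, where miR-195-5p was lowest.

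The miR-195 arm ratio was accordingly 215 to 409 in hyperlipidemic libraries, 205 and 238 in normal replicates 1 and 2, and 76.3 and 63.3 in normal replicates 3 and 4. The difference of 1.12 in log2 did not pass (exact permutation p = 0.0571, adjusted 0.229), and without normal replicates 3 and 4 it was 0.30. Those 2 libraries thus carried most of it.

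MiR-497-5p had a log2 fold near 0, with an interval reaching to both sides. It read 1486, 1717, 1638 and 2916 RPM in hyperlipidemic replicates 1 to 4, and 2215, 1909, 1907 and 1260 in normal replicates 1 to 4, with hyperlipidemic replicate 4 highest and normal replicate 4 lowest. The log2 fold was 0.07 (SE 0.28, 95% interval -0.58 to 0.71, limma adjusted p = 0.924), and it was below 0 without either of those libraries (-0.15 without hyperlipidemic replicate 4, -0.10 without normal replicate 4).

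MiR-497-3p had the largest fold of the family. It read 154, 142, 104 and 102 RPM in hyperlipidemic replicates 1 to 4, and 105, 98.1, 33.3 and 18.6 in normal replicates 1 to 4. The groups overlapped through normal replicate 1, and the last 2 values rest on 33 and 29 reads. The log2 fold was 1.28 (SE 0.55, 95% interval 0.04 to 2.53, limma adjusted p = 0.262). With normal replicates 3 and 4 left out it was 0.28 (limma adjusted p = 0.774). In the authors' deposited table this member is called up, with a fold of 2.61 and an adjusted p of 0.426. It is the 1 member called there, where 14.5% of all miRNAs are called up. The 5p to 3p ratio of miR-497 was 9.67, 12.1, 15.7 and 28.5 in hyperlipidemic and 21.2, 19.5, 57.2 and 67.7 in normal replicates 1 to 4. That was a difference of -1.22 in log2 (exact permutation p = 0.114, adjusted 0.229), or -0.42 without normal replicates 3 and 4.

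For miR-16 and miR-15a the arm ratios of the groups overlapped. MiR-16-5p, which red cells hold in quantity along with many other cells, read 14048, 17534, 19260 and 20457 RPM in hyperlipidemic replicates 1 to 4, and 20828, 17498, 15070 and 8374 in normal replicates 1 to 4. The highest and the lowest value were both from normal libraries (log2 fold 0.27, SE 0.30, 95% interval -0.41 to 0.95, limma adjusted p = 0.626). Without normal replicate 4 the log2 fold was 0.00, and without normal replicates 3 and 4 it was -0.11.

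MiR-16-3p read 78.2 to 116 RPM in hyperlipidemic and 46.8 to 89.2 in normal libraries (log2 fold 0.46, SE 0.30, limma adjusted p = 0.415; 0.29 without normal replicates 3 and 4). The miR-16 arm ratio was 166 to 195.1 against 179 to 249, a difference of -0.19 in log2 (exact permutation p = 0.286, adjusted 0.327). It was -0.41 without normal replicates 3 and 4 and -0.10 without normal replicate 2. Normal replicates 1 and 2, at 233 and 249, lay above all hyperlipidemic libraries.

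MiR-15a-5p, next in level after miR-16-5p, read 3809, 6281, 5988 and 5576 RPM in hyperlipidemic replicates 1 to 4, and 6152, 6150, 3568 and 1728 in normal replicates 1 to 4. The groups overlapped throughout (log2 fold 0.44, SE 0.41, limma adjusted p = 0.566). Leaving out normal replicates 3 and 4 gave -0.21. MiR-15a-3p lay at 24.95 to 35.05 and 14.76 to 43.7 RPM, on 23 to 120 reads (log2 fold 0.10, SE 0.40, limma adjusted p = 0.917). Its arm ratio was 153 to 195.4 against 117 to 166 (difference 0.35, exact permutation p = 0.0857, adjusted 0.229), and the difference was 0.16 without normal replicates 3 and 4.

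**Figure D4:**
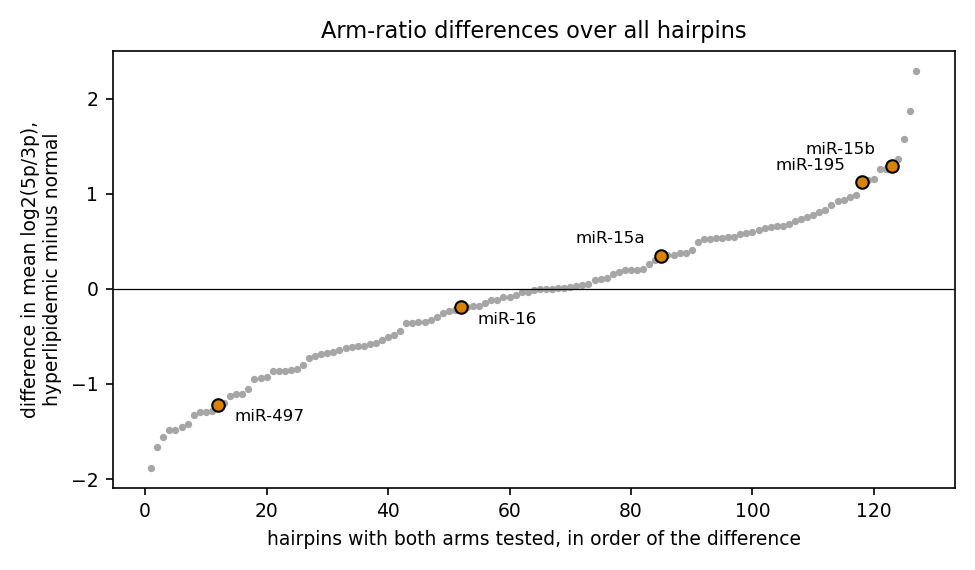
Difference in mean log2(5p/3p), hyperlipidemic minus normal, for the 127 hairpins with both arms tested, in order of size; each point is 1 hairpin. Family hairpins are marked, with miR-15b (1.29) and miR-195 (1.12) toward the upper end, miR-497 (-1.22) toward the lower end and miR-15a (0.35) and miR-16 (-0.19) between.

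Ratios between cluster mates were compared within libraries, and none passed. The smallest exact p of 4 against 4 libraries, 0.0286 for miR-15b above, gave 0.229 after adjustment over the 8 ratios. No ratio could pass unless several reached that p, so not passing says little about a difference. MiR-15b-5p stood at 0.408, 0.292, 0.291 and 0.249 of miR-16-5p in hyperlipidemic replicates 1 to 4, and at 0.227, 0.315, 0.142 and 0.242 in normal replicates 1 to 4 (difference 0.45 in log2, exact permutation p = 0.171, adjusted 0.229). The difference was 0.19 without normal replicates 3 and 4, and 0.24 without normal replicate 3 alone. MiR-195-5p stood at 3.66, 2.24, 2.08 and 2.27 times miR-497-5p, and at 2.17, 2.23, 1.29 and 1.97 times (difference 0.42, exact permutation p = 0.143, adjusted 0.229). The highest and lowest of these came from hyperlipidemic replicate 1 and normal replicate 3, without which the difference was 0.23 and 0.24, and it was 0.18 without normal replicates 3 and 4. The sum of miR-15b-5p and miR-16-5p was 2.68 to 4.93 times that of miR-195-5p and miR-497-5p in hyperlipidemic and 2.78 to 3.94 times in normal libraries (difference 0.01, exact permutation p = 0.971).

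Across the 8 libraries miR-15b-5p and miR-497-3p varied with the summed red-cell list. Pearson's r was 0.94 for miR-15b-5p (exact permutation p = 0.0037, adjusted over 10 members 0.0244; Spearman's rho 0.81, exact p = 0.0218, adjusted 0.109) and 0.92 for miR-497-3p (exact p = 0.0049, adjusted 0.0244; rho 0.86, exact p = 0.0107, adjusted 0.107). MiR-195-3p ran the other way, with r at -0.83 (exact permutation p = 0.0147, adjusted 0.0489; rho -0.69, exact p = 0.0694, adjusted 0.174). Without normal replicates 3 and 4, the libraries farthest from the median of the list, r over the other 6 was 0.55 (exact permutation p = 0.276), 0.39 (0.433) and -0.09 (0.871), so these relations rest on those 2 libraries. For miR-16-5p r was 0.66 (exact permutation p = 0.0730, adjusted 0.119; rho 0.40, exact p = 0.327, adjusted 0.450) and -0.33 without them. The leukocyte list was also lowest in those libraries (9.34% and 6.08%). No list other than the red-cell list was correlated with the members, so whether these relations are particular to it was not tested.

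**Figure D5:**
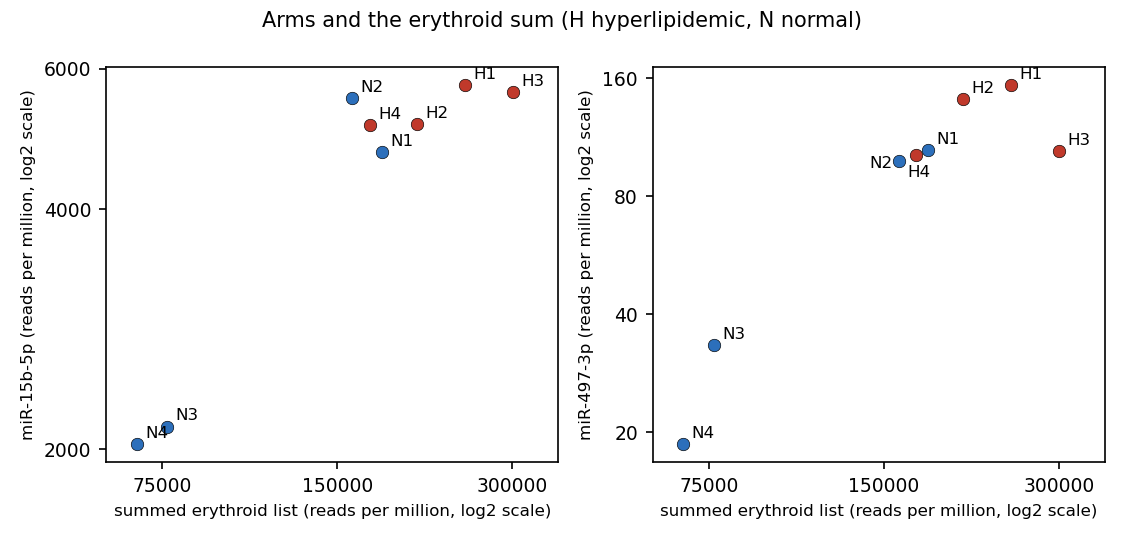
Level of miR-15b-5p (left) and miR-497-3p (right) against the summed red-cell list, both in RPM on log2 scales; each point is 1 library, H for hyperlipidemic and N for normal with the replicate number. N3 and N4 lie at the lower left, and the other 6 libraries lie together at the upper right.

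Pairs of members were also compared across the libraries (45 pairs, Pearson's r, exact permutation). The closest pair of 5p arms was miR-15a-5p and miR-16-5p (r = 0.96, exact p = 0.0055, adjusted 0.0733; rho 0.69, exact p = 0.0694, adjusted 0.312; 0.78 without normal replicates 3 and 4), which did not pass. MiR-15b-5p and its cluster mate miR-16-5p stood at r = 0.71 (exact p = 0.0629, adjusted 0.137; rho 0.10, exact p = 0.840, adjusted 0.879) and at -0.70 without those libraries. For miR-195-5p and miR-497-5p r was 0.61 (exact p = 0.103, adjusted 0.177; rho 0.48, exact p = 0.243, adjusted 0.481; r = 0.59 without hyperlipidemic replicate 4 and normal replicate 3).

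Outside the family, the miRNAs most like a member in their pattern over the 8 libraries were sought among 386 tested catalogued miRNAs by Pearson's r of the log2 values. Being the highest of many, and with normal replicates 3 and 4 in common, these values are a description. MiR-15b-5p was closest to the leukocyte miRNA miR-142-5p (r = 0.99), then miR-29b-3p (0.98) and miR-101a-5p (0.98). MiR-16-5p was closest to miR-350 (0.95), and miR-15a-5p to miR-466b-4-3p and miR-466b-2-3p (0.96 each), then miR-142-3p (0.95). MiR-195-5p was closest to miR-374-5p (0.95). MiR-497-5p was closest to the endothelial miRNA miR-126a-5p (0.90), with miR-26b-5p at 0.86. The other arm of the endothelial list, miR-126a-3p, was not among the 3 most alike. The log2 folds of these arms were 0.05 for miR-126a-5p and -0.60 for miR-126a-3p. MiR-15b-3p was closest to miR-191a-3p (0.97) and miR-497-3p to miR-29b-3p (0.98).

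The seed relatives on the X chromosome had lower levels than the 5p arms above, and neither passed. MiR-322-5p, which shares the full seed, had a mean of 810 ± 286 RPM (SD, n = 4) in hyperlipidemic and 835 ± 264 RPM (SD, n = 4) in normal libraries, a log2 fold of -0.05 with an SE of 0.35 (limma adjusted p = 0.944). MiR-503-5p stood at 82.7 ± 44.1 and 123 ± 56.4 RPM (SD, n = 4 each), a log2 fold of -0.62 with an SE of 0.45 (limma adjusted p = 0.441).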

How the data were processed

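Small RNA of bone was sequenced in 8 libraries (4 per group) from a kit with ligated adapters, gel bands of 140 to 160 bp being kept and read over 50 bases from a single end, per the labels' protocols. Bcl2fastq 1.8.4 and Rnor_6.0 are named, per the submitters' processing notes. The sources used here do not give the aligner, miRNA reference or counting rule. The table that the authors deposited is named for FPKM, yet its signal values are reads per 1000000, scaled separately for 604 catalogued and 370 predicted miRNAs. Within each class and library all low values (up to 20 reads) were whole multiples of 1 read within 0.1 read, which gave the reads. The authors also deposited a fold (ratio), its log2, and p-values, per the file headers, without naming a test.

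Tests used limma 3.58.1 in R 4.3.3 (variance trend, two-sided) on log2(value + 0.475), with the pseudocount set from the smallest nonzero values of the libraries (their median), for miRNAs above 0 in at least 4 libraries with a mean of at least 2.375. Ratios, shares and correlations used exact tests in Python 3.11.15. The limma step was tested on simulated data. Members, lists, tests and most alternatives were chosen with earlier results of these data known. Named miRNAs are the members, those of equal seed, the 3 most alike per member (of which the text gives a part) and the red-cell markers; miR-503-5p was added. Of the marker lists, lymphoid miRNAs (4 in the table) held 0.25% to 0.47% of the catalogued signal, endothelial (2) 0.91% to 1.86%, striated muscle (11) 0.03% to 0.86% and cartilage (6) 0.29% to 0.78%. RefSeq sequences matched 544 of 604 catalogued names. The quasi-likelihood count test was not run because values of the normal libraries did not meet the check for recovered reads over both classes together.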

Additional observations from a re-analysis of the deposited data

Results flagged for a closer look

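Of 38 groups of 4 libraries examined for a single far library, 3 had one, where chance alone would mark about 1 in 20 groups. MiR-195-3p was at 22.4 RPM in hyperlipidemic replicate 1, against 14.9 to 16.2 in the other 3. MiR-497-5p was at 2916 in hyperlipidemic replicate 4, against 1486 to 1717. The ratio of miR-195-5p to miR-497-5p was 3.66 in hyperlipidemic replicate 1, against 2.08 to 2.27.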

How the results depend on the processing

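No member passed the limma threshold under any alternative run. Even with all 8 libraries, no ratio could pass the adjustment of the exact tests alone. The ratios and the family share say nothing of stability where libraries were left out or blocked, since the smallest exact p is then 0.0571 (3 against 4), 0.0667 (2 against 4) or 0.125 (4 pairs). Leaving out normal replicates 3 and 4 turned miR-15a-5p to -0.21, miR-15a-3p to -0.37, miR-16-5p to -0.11, miR-497-5p to -0.14, the ratio of the 2 clusters to -0.067 and the family share to -0.22. With 1 library left out at a time, log2 folds ran from -0.22 to 0.29 for miR-15a-3p and from -0.15 to 0.18 for miR-497-5p, and the ratio of the 2 clusters from -0.15 to 0.14. Turned values were -0.22 for miR-15a-3p without normal replicate 4, -0.15 and -0.10 for miR-497-5p without hyperlipidemic replicate 4 and normal replicate 4, and -0.059, -0.15 and -0.098 for the cluster ratio without hyperlipidemic replicates 2 and 3 and normal replicate 4. The cause was not tested.

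Of 696 miRNAs 5 passed; 12 did with a pseudocount 10 times as large, 9 with quantile normalization, 0 with the replicate number as a replicate block, and 0 to 12 with 1 library left out. At an unadjusted p under 0.05 there were 113 with the block and 124 without. Of the 396 catalogued miRNAs tested alone 3 passed (83 unadjusted), and 0 with voom on those same miRNAs (81 unadjusted). Same-numbered libraries did not deviate together (r of 0.14, -0.37, -0.32 and -0.01). With so few libraries these values cannot decide whether the numbers pair the samples.

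Depth limits the 3p arms: miR-15a-3p and miR-195-3p rest on as few as 23 and 25 reads.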
